A study of Mus musculus with 10 samples.

Results

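Xbp1, Hspa5, Hsp90b1, Calr, Pdia4, Pdia6, Ddit3 and Nupr1, which are genes of the endoplasmic reticulum (ER) chaperone system and of its stress response, were followed through mouse liver. They were taken by name. Each probe set, the group of short oligonucleotides that reads 1 transcript on an Affymetrix MG_U74Av2 array, was used only where the platform annotation gave it 1 gene. The 8 genes are 8 of 8251 genes measured in this way, and they hold 10 of 10833 probe sets. Where a gene had several, the brightest one on average stood for it, and only Pdia6 had a choice, among 3.

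The study set out to find direct targets of the SREBPs, the transcription factors of lipid synthesis, in livers of male mice. TgSREBP-1a and TgSREBP-2 mice carried a transgene for the active nuclear form of human SREBP-1a or SREBP-2. The promoter of the transgenes is not given in the sources used here. These 2 groups, and a group of wild type littermates, were aged 12 to 16 weeks. For 2 weeks they were fed a diet named high protein/low carbohydrate, used to raise the transgenes' expression and called the high-protein diet here. Scap-/- mice lacked SCAP, the escort protein of the SREBPs, in liver. Their Cre recombinase was driven by the MX1 promoter, which interferon switches on in liver and also in other cells. Both these mice and the wild type group set against them were aged 10 to 12 weeks and ate Teklad chow. Per the labels they received 4 injections of polyinosinic-polycytidylic acid, and livers were taken 14 days after the last one. The RNA of 5 mice per group was combined to 1 pool of 20 µg, and each of the 5 pools was hybridised to 2 arrays. Differences were tested in 1 limma fit over all arrays, with n = 2 arrays per group throughout. The p-values therefore compare pools through the spread between hybridisations, and they carry no error between mice. A gene is said to be called where its Benjamini-Hochberg adjusted p over the 8251 genes was under 0.05 and its difference at least 1.5-fold. An error after ± is the standard error of that fit. All levels and differences below are on the log2 scale, on which 1 unit is a 2-fold change, and levels of different probe sets are not compared.

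Proteins that a hepatocyte secretes are folded in the ER by chaperones and by enzymes that form disulfide bonds. When unfolded protein builds up, the membrane sensors IRE1, PERK and ATF6 start the unfolded protein response. IRE1 splices the Xbp1 mRNA so that it encodes an active transcription factor, ATF6 and XBP1 raise chaperone genes, and PERK acts through ATF4 on stress genes such as Ddit3. The arrays report total Xbp1 transcript and cannot tell its spliced form from the unspliced one.

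The known binding element of ATF6 and NF-Y in chaperone promoters, the ER stress response element, reads CCAAT and CCACG with any 9 bases between them. It was searched on both strands in the 250 bases before the RefSeq start of each gene (GRCm38.p6), because it is the element by which several of these genes are known to be raised together. It was found in 4 of the 8 members, Hspa5, Hsp90b1, Calr and Pdia6, against 37 of 32851 promoter windows of the same length (0.113%). Xbp1, Pdia4, Ddit3 and Nupr1 had no match in this window. The windows of the 4 genes are given 5′ to 3′ on the strand of the gene, with the matches in capitals. A match that opens with CGTGG and ends with ATTGG is the same element on the other strand.
Hspa5: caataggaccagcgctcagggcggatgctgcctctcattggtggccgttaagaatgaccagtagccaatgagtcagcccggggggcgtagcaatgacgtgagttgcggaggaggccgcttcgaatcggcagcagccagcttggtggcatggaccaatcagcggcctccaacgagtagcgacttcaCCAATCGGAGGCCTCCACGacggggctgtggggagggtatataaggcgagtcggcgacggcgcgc
Hsp90b1: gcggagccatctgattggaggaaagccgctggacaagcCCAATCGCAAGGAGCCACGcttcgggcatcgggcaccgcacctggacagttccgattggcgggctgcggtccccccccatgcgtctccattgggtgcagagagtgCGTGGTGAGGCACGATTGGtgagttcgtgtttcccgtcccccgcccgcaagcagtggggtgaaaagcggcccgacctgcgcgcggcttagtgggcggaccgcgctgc
Calr: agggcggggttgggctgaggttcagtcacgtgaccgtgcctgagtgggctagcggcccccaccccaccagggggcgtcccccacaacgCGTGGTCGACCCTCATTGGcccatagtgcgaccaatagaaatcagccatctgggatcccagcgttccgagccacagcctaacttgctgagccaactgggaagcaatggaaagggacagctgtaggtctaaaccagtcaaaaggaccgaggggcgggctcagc
Pdia6: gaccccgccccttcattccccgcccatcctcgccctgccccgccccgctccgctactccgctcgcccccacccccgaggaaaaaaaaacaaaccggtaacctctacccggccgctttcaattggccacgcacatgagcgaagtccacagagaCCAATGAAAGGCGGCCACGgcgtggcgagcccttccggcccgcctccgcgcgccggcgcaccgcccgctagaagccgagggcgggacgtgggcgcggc

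The Hspa5 window lies at chr2:34771840-34772089 on the plus strand, directly before the gene (chr2:34772090-34776529), and its match runs from 65 to 47 bases before the start. Hsp90b1 has a pair of matches in chr10:86705445-86705694 on the minus strand, at 212 to 194 and 107 to 89 bases before the start. The Calr match lies 162 to 144 bases before the start, in chr8:84846932-84847181 on the minus strand. That of Pdia6 lies 98 to 80 bases before it, in chr12:17266339-17266588 on the plus strand. A second form of the element, ATTGG and CCACG with 1 base between them, and the XBP1 core TGACGTGG were found in none of the 8 windows, against 0.0304% and 0.563% of all windows. TGATGNAAT, a composite element that ATF4 and CHOP are known to bind, was found in 1 member, Nupr1, and in 0.816% of all windows. Nupr1 is shown for that reason, from chr7:126625471-126625720 on the minus strand, with the match, in its reverse form, in capitals.
Nupr1: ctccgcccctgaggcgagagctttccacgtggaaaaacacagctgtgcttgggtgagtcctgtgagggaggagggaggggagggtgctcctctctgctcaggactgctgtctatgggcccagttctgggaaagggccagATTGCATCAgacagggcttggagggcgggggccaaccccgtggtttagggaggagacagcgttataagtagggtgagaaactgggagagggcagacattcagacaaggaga

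A match describes letters only, and no binding was measured.

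The arrays had medians of 6.37 to 6.4 and duplicates correlated at 0.9921 to 0.9978 over genes. Duplicates were least alike in the TgSREBP-1a pool, where 151 genes lay at least 1.5-fold apart, followed by wild type on the high-protein diet with 101 and TgSREBP-2 with 55. Scap-/- had 6 such genes and wild type on chow had 0. Fasn, fatty acid synthase and a textbook SREBP target, stood 3.80 ± 0.11 above diet-matched wild type in TgSREBP-1a and 2.75 ± 0.11 above it in TgSREBP-2. In Scap-/- it stood at -1.61 ± 0.11. Scap and Srebf2 were not analysed here. Of 10 listed hepatocyte markers 9 were measured. Alb, the gene of albumin, read between 13.48 and 13.85 over the arrays, while the dimmest, Ass1, read between 7.25 and 7.76. Some of the 9 varied more: Ttr read between 8.75 and 10.95, Tat between 11.43 and 12.69 and Serpina1b between 12.87 and 13.79.

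In the TgSREBP-1a pool 4 of the 8 members were called lower than in wild type on the same diet: Xbp1, Hspa5, Pdia6 and Nupr1. Over all genes 7.37% were called in this comparison, 2.59% lower and 4.78% higher. No member was called higher, and the members' median difference was -0.56 against -0.03 over all genes. With no minimum fold, 6 of the 8 had an adjusted p under 0.05 and were lower, Hsp90b1 and Pdia4 being added, against 6.74% of all genes. In 7 of the 8 both TgSREBP-1a arrays lay below both wild type arrays, which held for 28.3% of all genes. The exception was Ddit3. The call of all 4 genes rested on the arrays used. All lost it without wild type array number 1, at -0.79 for Xbp1, -0.80 for Hspa5, -0.55 for Pdia6 and -0.57 for Nupr1. Xbp1 and Pdia6 lost it without TgSREBP-1a array number 2, at -0.68 and -0.53. These fits had no replicate block. Same-numbered arrays of these pools deviated together, so leaving 1 out also unbalances the array numbers. With all arrays and the number as a replicate block, the same 4 were called (limma adjusted p at most 1.14e-04).

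**Figure D1:**
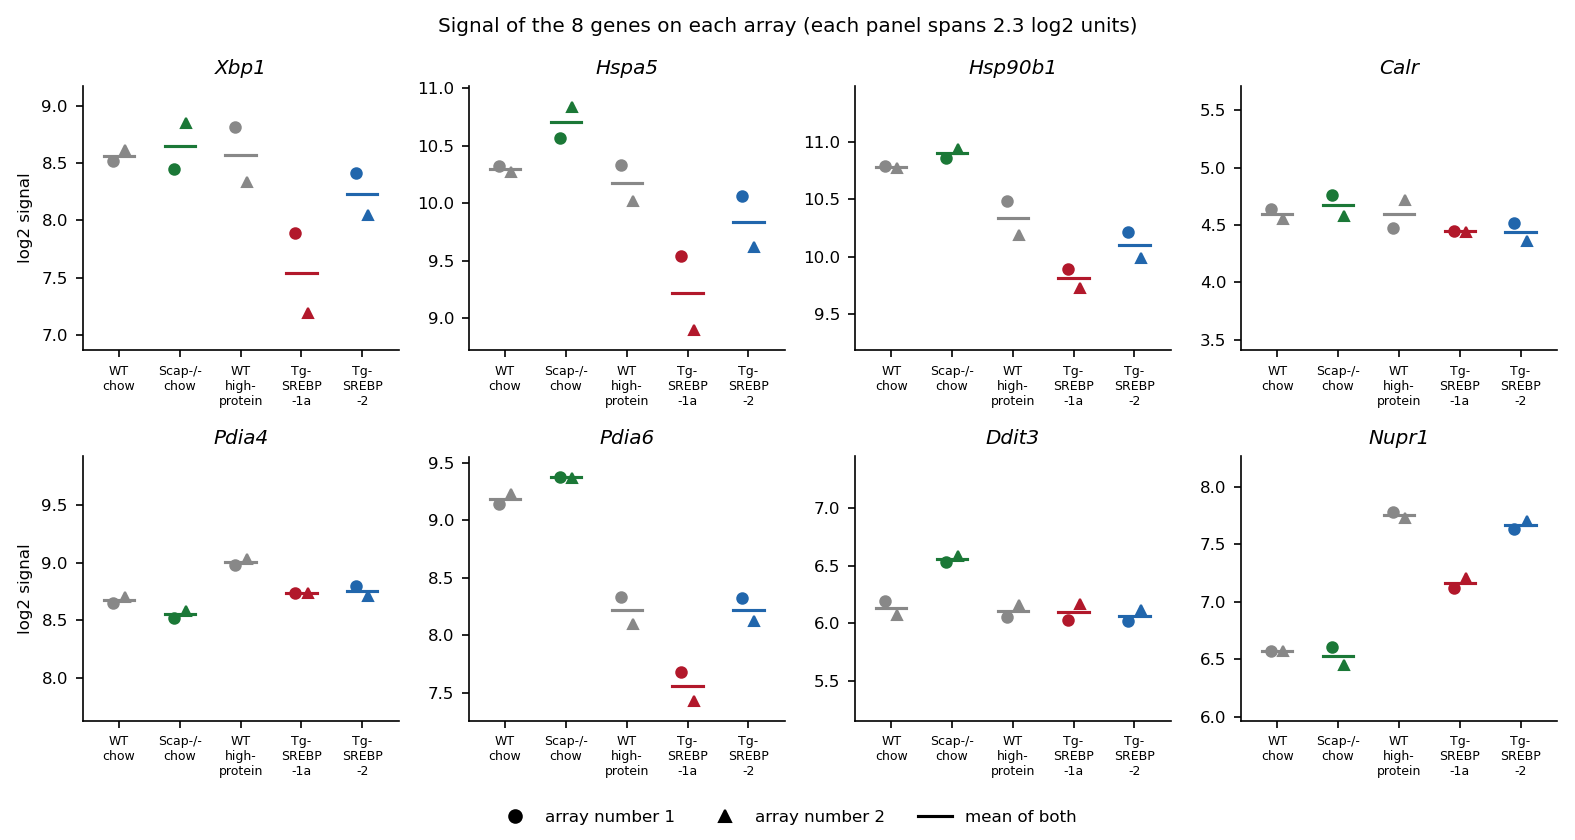
Log2 signal of each gene on the 10 arrays, 2 per pool, with circles for array number 1, triangles for array number 2 and a bar at their mean; every panel spans 2.3 log2 units around its own level. Xbp1 and Hspa5 are lowest in TgSREBP-1a, Pdia6 is lower in all 3 pools on the high-protein diet than on chow, Nupr1 is higher there, and Ddit3 is highest in Scap-/-.

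Xbp1 encodes the transcription factor that IRE1 activates. Its signal was 8.81 and 8.33 in diet-matched wild type, 7.89 and 7.19 in TgSREBP-1a, and 8.41 and 8.05 in TgSREBP-2. On chow it was 8.52 and 8.61 in wild type and 8.45 and 8.85 in Scap-/-. Both TgSREBP-1a arrays lay below all other arrays, while the 2 wild type pools and Scap-/- overlapped. The TgSREBP-1a difference was -1.03 ± 0.24, 2.04-fold lower (limma adjusted p = 0.0128). The 2 TgSREBP-1a arrays were themselves 0.70 apart, a gap reached by 0.606% of genes in that pool. Within array number 1 the difference was -0.93 and within number 2 it was -1.14. With the array number as a replicate block, the difference had a standard error of 0.10 (limma adjusted p = 8.27e-06). Without wild type array number 1 it was -0.79 with an adjusted p of 0.0953, and without TgSREBP-1a array number 2 it was -0.68 with an adjusted p of 0.0662, both from limma.

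Hspa5 encodes BiP, the HSP70 chaperone of the ER that also holds the stress sensors inactive. It read 10.33 and 10.02 in diet-matched wild type against 9.54 and 8.90 in TgSREBP-1a, and 10.06 and 9.62 in TgSREBP-2. On chow it read 10.32 and 10.27 in wild type and 10.57 and 10.84 in Scap-/-. The lowest pair was TgSREBP-1a and the highest pair Scap-/-, and neither overlapped another pool. The TgSREBP-1a difference was -0.95 ± 0.21, 1.94-fold lower (limma adjusted p = 0.0102), with -0.79 within array number 1 and -1.12 within number 2. With the array number as a replicate block, the difference had a standard error of 0.10 (limma adjusted p = 1.60e-05). It was -0.80 without wild type array number 1, where the limma adjusted p was 0.0731. As for Xbp1, the duplicates of this pool stood far apart, by 0.64, a gap reached by 1.22% of genes.

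Hsp90b1 encodes GRP94, the HSP90 of the ER. Its 2 TgSREBP-1a arrays read 9.89 and 9.73 and those of wild type on the same diet 10.48 and 10.19. The pools did not overlap, and the difference of -0.53 ± 0.12 passed the adjusted p (limma, 0.0107) but at 1.44-fold not the fold minimum. TgSREBP-2 read 10.21 and 9.99 and overlapped wild type. On chow the gene read 10.79 and 10.77 in wild type and 10.86 and 10.94 in Scap-/-, above every array of the high-protein diet.

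Calr encodes calreticulin, the lectin chaperone of the ER lumen. Its probe set was dim, with a mean of 4.55 over the 10 arrays, and it alone among the members fell in the dimmest 25% of genes (a mean under 5.58). Its values ran from 4.36 to 4.76 over all 10 arrays and no comparison passed the test. The TgSREBP-1a difference was -0.15 ± 0.11, with a 95% interval from -0.39 to 0.08. A signal this close to the low end of the scale, which starts at 2.68, limits what the probe set can show.

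Pdia4 and Pdia6 encode protein disulfide isomerases that act on client proteins beside BiP. Pdia6 read 8.33 and 8.10 in diet-matched wild type, 7.68 and 7.43 in TgSREBP-1a and 8.32 and 8.12 in TgSREBP-2. On chow it read 9.14 and 9.23 in wild type and 9.38 and 9.37 in Scap-/-. TgSREBP-1a stood below every other pool, and the other 2 pools on the diet covered the same range. The TgSREBP-1a difference was -0.66 ± 0.11, 1.58-fold lower (limma adjusted p = 0.00248). It was -0.65 and -0.68 within array numbers 1 and 2. The other 2 Pdia6 probe sets gave -0.64 ± 0.14 and -0.41 ± 0.14, with limma adjusted p of 0.0128 and 0.0836 over all probe sets. With the mean of the 3 the gene stood at -0.57 and was no longer called. Pdia4 followed another order. It read 8.98 and 9.03 in diet-matched wild type, 8.74 on both TgSREBP-1a arrays and 8.80 and 8.71 in TgSREBP-2. Both transgenic pools lay below wild type, by -0.27 ± 0.08 (limma adjusted p = 0.0371) and -0.26 ± 0.08 (limma adjusted p = 0.0935), and neither difference reached 1.5-fold.

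Ddit3 and Nupr1 stand on the ATF4 side of the response. Ddit3 encodes CHOP, the transcription factor linked with cell death under lasting ER stress. It read 6.05 and 6.16 in diet-matched wild type, 6.03 and 6.17 in TgSREBP-1a and 6.02 and 6.11 in TgSREBP-2. The 3 pools overlapped. The TgSREBP-1a difference was 0.00 ± 0.09, with a 95% interval from -0.20 to 0.19, so a 1.5-fold difference between these pools lies outside that interval. Nupr1 encodes a small stress-induced chromatin protein. It read 7.78 and 7.73 in diet-matched wild type, 7.12 and 7.21 in TgSREBP-1a and 7.63 and 7.70 in TgSREBP-2. The TgSREBP-1a arrays lay below the others on the diet, by -0.59 ± 0.08 against wild type, 1.51-fold lower (limma adjusted p = 6.80e-04). Its fold sat at the edge of the call rule: without wild type array number 1 it was -0.57, and without TgSREBP-1a array number 1 it was -0.55.

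The TgSREBP-2 pool was compared with the same 2 wild type arrays, so the comparisons are not independent. No member was called, where 2.57% of all genes were, and none had an adjusted p under 0.05 in limma, where 5.05% of all genes did. At an unadjusted p under 0.05 there was 1, Pdia4, against 17.1% of all genes. Xbp1 stood at -0.34 ± 0.24 with a 95% interval from -0.86 to 0.18, Hspa5 at -0.33 ± 0.21 with an interval from -0.80 to 0.13, and Hsp90b1 at -0.24 ± 0.12 with an interval from -0.49 to 0.02. Their differences had 1 sign within both array numbers, at -0.40 and -0.28 for Xbp1, -0.27 and -0.40 for Hspa5 and -0.27 and -0.20 for Hsp90b1. With the number as a replicate block, 3 members had an adjusted p under 0.05 and were lower, all under 1.5-fold. They were Xbp1 (standard error 0.10, limma adjusted p = 0.0378), Hspa5 (0.10 and 0.0409) and Pdia4 (0.07 and 0.0358). The Pdia6 difference was 0.00 ± 0.11, with an interval from -0.25 to 0.26.

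**Figure D2:**
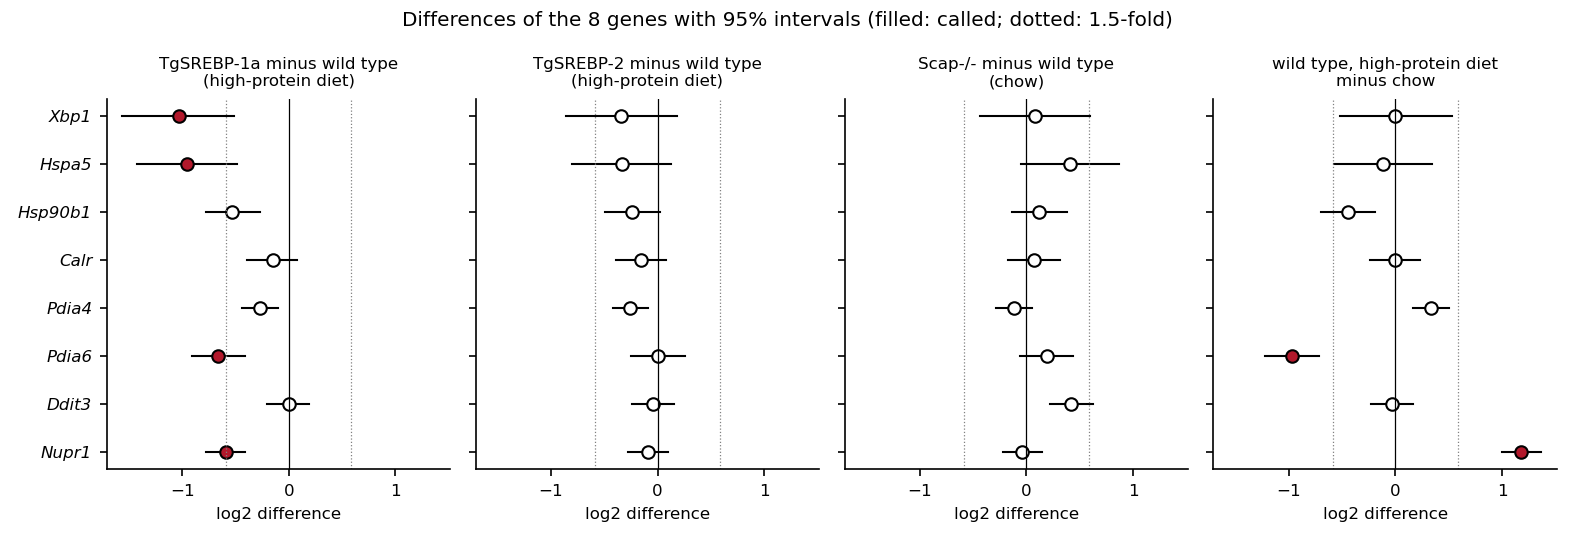
Log2 difference of each gene (circle) with its 95% interval (line) in 4 comparisons, filled where the gene was called; dotted lines mark 1.5-fold. In TgSREBP-1a the 4 filled genes, Xbp1, Hspa5, Pdia6 and Nupr1, lie left of 0, no gene is filled in TgSREBP-2 or Scap-/-, and between the wild type pools Pdia6 lies left and Nupr1 right.

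Set directly against TgSREBP-2, the TgSREBP-1a pool had 1 member called, Pdia6, at -0.67 ± 0.11 (1.59-fold lower, limma adjusted p = 0.00309), against 2.95% of genes called lower and 2.24% called higher. The pools did not overlap for 5 members, all lower in TgSREBP-1a, as they did for 22.4% of genes. Nupr1 was lower by -0.50 ± 0.08 (limma adjusted p = 0.00273) but only 1.42-fold. Xbp1 differed by -0.69 ± 0.24 and Hspa5 by -0.62 ± 0.21, and neither passed in limma (adjusted p = 0.100 and 0.0969). Arrays with the same number deviated together in these pools, and with the number as a replicate block the same differences had a standard error of 0.10 each and were called, with limma adjusted p of 2.85e-04 and 6.80e-04. Array number 1 read higher than number 2 for Xbp1, Hspa5, Hsp90b1 and Pdia6 in all 3 pools on the high-protein diet. Without TgSREBP-1a array number 2, or without TgSREBP-2 array number 1, no member was called in this comparison.

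In the Scap-/- pool no member was called against wild type on chow, where 1.66% of genes were. At an unadjusted p under 0.05 limma gave 1, Ddit3, against 9.78% of genes. Ddit3 alone passed the adjusted p. It read 6.53 and 6.58 in Scap-/- and 6.19 and 6.07 in wild type, a difference of 0.42 ± 0.09 (limma adjusted p = 0.0314), which at 1.34-fold fell short of the fold minimum. Over all genes 1.41% were higher at that adjusted p. In 4 members, Hspa5, Hsp90b1, Pdia6 and Ddit3, both Scap-/- arrays lay above both wild type arrays, against 22.6% of genes. In 1, Pdia4, they lay below, at 8.52 and 8.58 against 8.65 and 8.70. Hspa5 stood at 0.41 ± 0.21 (limma adjusted p = 0.621), with an interval from -0.05 to 0.87. Pdia6 stood at 0.19 ± 0.11, Hsp90b1 at 0.12 ± 0.12 and Xbp1 at 0.08 ± 0.24. Nupr1 stood at -0.04 ± 0.08, with an interval from -0.22 to 0.15.

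The 2 wild type pools differed in diet, age and injections together, and these cannot be told apart. Against chow, 2 members were called, 1 higher and 1 lower, where 1.28% of genes were called higher and 4.34% lower. Nupr1 was 2.27-fold higher, from 6.57 on both chow arrays to 7.78 and 7.73, a difference of 1.18 ± 0.08 (limma adjusted p = 1.15e-05). Pdia6 was 1.96-fold lower, by -0.97 ± 0.11 (limma adjusted p = 3.48e-04), and its other 2 probe sets stood at -1.04 ± 0.14 and -0.74 ± 0.14. Hsp90b1 was lower by -0.44 ± 0.12 (limma adjusted p = 0.0228) and Pdia4 higher by 0.33 ± 0.08 (limma adjusted p = 0.0123), both under 1.5-fold. Xbp1 stood at 0.00 ± 0.24 and Hspa5 at -0.12 ± 0.21. The members thus did not share a direction here. Exocrine pancreas markers were also higher on the diet (9 of 11 called, median 0.90) and macrophage markers lower (5 of 11 called, median -0.58), and their part in these differences was not tested.

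The order of the pool means differed between members. Xbp1, Hspa5, Hsp90b1, Calr, Pdia6 and Ddit3 had their highest mean in Scap-/-, and Pdia4 and Nupr1 their lowest there. TgSREBP-1a was lowest for Xbp1, Hspa5, Hsp90b1 and Pdia6. Pool means spanned 1.82 for Pdia6, 1.48 for Hspa5, 1.22 for Nupr1, 1.11 for Xbp1 and 1.09 for Hsp90b1, against 0.49 for Ddit3, 0.46 for Pdia4 and 0.23 for Calr. Some neighbours in the order overlapped. For Xbp1 these were Scap-/- with wild type on the diet and the wild type pools with each other, and for Hspa5 the wild type pools with each other and wild type on the high-protein diet with TgSREBP-2.

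A list of ER chaperones and folding enzymes held 38 genes, of which 31 were measured. In TgSREBP-1a 8 of them were called lower and none higher, against 2.59% and 4.78% of all genes, and 23 of the 31 (74.2%) lay below 0, against 55.9% of all genes. Their median was -0.26. Hspa5 and Pdia6 are 2 of the 8, and 6 came from the 26 genes that are not members. Creld2, an ER stress-inducible disulfide isomerase, read 6.49 and 6.50 against 7.47 on both wild type arrays, a difference of -0.97 ± 0.07 (limma adjusted p = 7.81e-06). Pdia5, another disulfide isomerase, stood at -0.97 ± 0.08 and Ero1b, an oxidase that recharges these enzymes, at -0.90 ± 0.13. Dnajb11, a J-domain partner of BiP, and Manf, a secreted ER stress protein, both stood at -0.87, with errors of 0.16 and 0.14. Ppib, a prolyl isomerase of the ER, was lower by -0.68 ± 0.09. Other chaperones of the list did not pass: P4hb, the classical disulfide isomerase, stood at -0.12 ± 0.09, and Canx, the membrane-bound relative of calreticulin, at -0.08 ± 0.11. Dnajb9, another J-domain partner of BiP, stood at 0.21 ± 0.24. With no minimum fold, 15 of the 31 had an adjusted p under 0.05. The only higher ones among these were Ppic at 0.39 ± 0.10 and Ero1a at 0.34 ± 0.09 (limma adjusted p = 0.0257 and 0.0282). A lower list was not particular to TgSREBP-1a. Between the wild type pools, high-protein diet minus chow, 25 of the 31 (80.6%) lay below 0, against 48.6% of all genes. The median there was -0.22. Called lower were 2 and higher none, against 4.34% and 1.28% of all genes. In limma 11 had an adjusted p under 0.05, and only Pdia4 among them was higher.

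**Figure D3:**
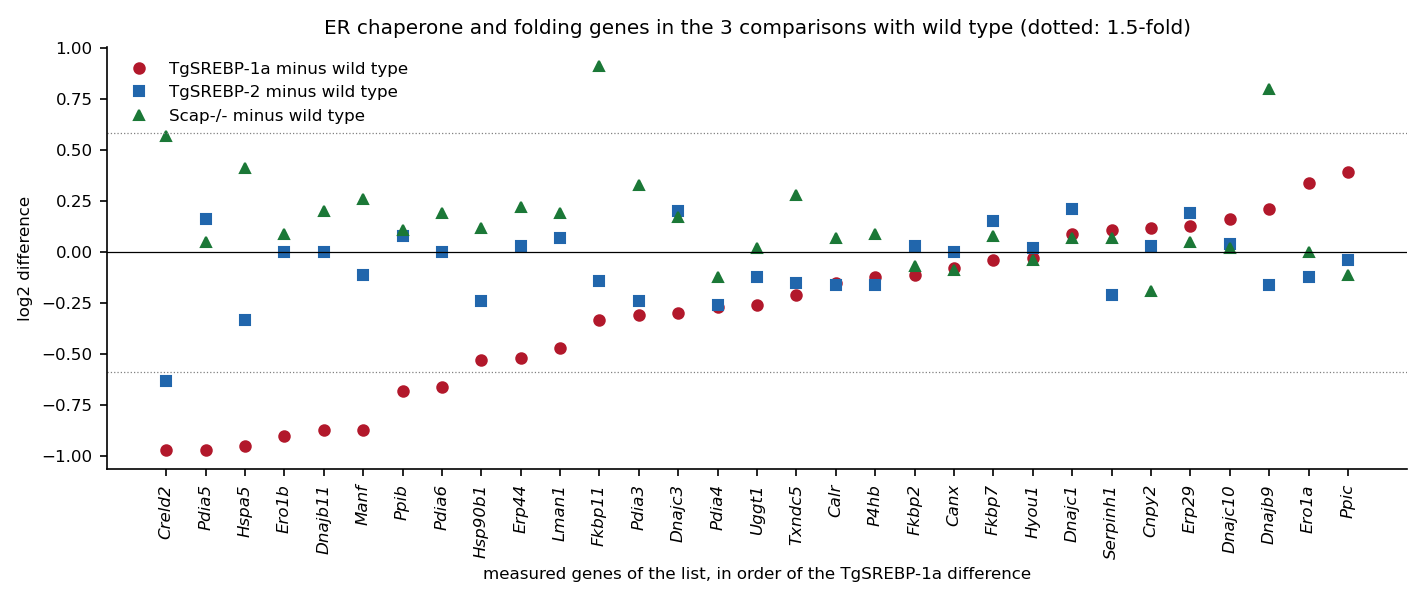
Log2 difference from wild type of the 31 measured ER chaperone and folding genes (x axis, in order of the TgSREBP-1a difference) in TgSREBP-1a (circles), TgSREBP-2 (squares) and Scap-/- (triangles); dotted lines mark 1.5-fold. The TgSREBP-1a circles start at -0.97, while Creld2 in TgSREBP-2 and Fkbp11 in Scap-/- are the only genes called in the other 2 comparisons.

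In TgSREBP-2 the same list had 1 gene called lower, against 0.388% of all genes, and a median of 0.00. It was Creld2, at -0.63 ± 0.07 (limma adjusted p = 6.93e-04). Without TgSREBP-2 array number 2 it stood at -0.58 and was not called. Between the transgenic pools 6 of the 31 were called lower in TgSREBP-1a, against 2.95% of all genes. They were Pdia5 at -1.12 ± 0.08, Ero1b at -0.90 ± 0.13, Dnajb11 at -0.87 ± 0.16, Ppib at -0.76 ± 0.09, Manf at -0.76 ± 0.14 and Pdia6. In Scap-/- 1 gene of the list was called higher, against 0.739% of all genes. It was Fkbp11, a prolyl isomerase of secretory cells, at 0.91 ± 0.08 (limma adjusted p = 1.14e-04). The count was 2 without wild type array number 2 on chow, with the Scap set fitted alone, under the replicate block or with the mean of all probe sets. In that comparison 6 of the 31 lay below 0, against 48.3% of all genes. Creld2 was higher there by 0.57 ± 0.07 (limma adjusted p = 0.00181), which missed 1.5-fold. Dnajb9 was past it, at 6.55 and 6.99 against 5.83 and 6.11, but its difference of 0.80 ± 0.24 did not pass (limma adjusted p = 0.167).

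The other arms of the ER system were read from lists of their own. Of 28 measured genes of ER translocation and signal peptide cleavage, 1 was called in TgSREBP-1a: Ostc, an oligosaccharyltransferase subunit, was higher by 0.80 ± 0.10 (limma adjusted p = 3.45e-04). Of 14 genes of ER-associated degradation, Edem1, a mannosidase-like protein that marks misfolded glycoproteins, was higher by 0.64 ± 0.13 (limma adjusted p = 0.00564). It stood at 0.44 without TgSREBP-1a array number 1 and was then not called. In TgSREBP-1a 3.57% of the translocation list and 7.14% of the degradation list were thus called, against 7.37% of all genes. At an unadjusted p under 0.05 limma gave 6 of the 28 and 9 of the 14, against 29.6% of all genes. The 14 degradation genes ran from -0.41 to 0.64, and 7 of them lay below 0. None of 24 genes of transport from ER to Golgi was called in TgSREBP-1a. Limma gave 7 of them an unadjusted p under 0.05, against 29.6% of all genes. In Scap-/- 2 of these 24 were called higher, against 0.739% of all genes. They were the retrieval receptor Kdelr2 at 0.74 ± 0.16 and the COPII coat subunit Sec23b at 0.63 ± 0.12. Kdelr2 lost its call without any 1 of the 4 arrays, and Sec23b without 3 of them. With the mean of all probe sets they stood at 0.30 and 0.27. In TgSREBP-2 limma called no gene of these 3 lists, and gave 5 of 28, 4 of 14 and 2 of 24 an unadjusted p under 0.05, against 17.1% of all genes.

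Among 8 measured sensors and transducers of the unfolded protein response, Xbp1 was the only gene called in TgSREBP-1a. Eif2ak3, the gene of PERK, stood at 0.10 ± 0.08, Atf6 at -0.23 ± 0.10 and Atf4 at -0.04 ± 0.08. Of 30 genes of the ATF4 and CHOP branch, 2 were called higher and 1, Nupr1, lower, which is 10.0% against 7.37% of all genes. Ddit4, an inhibitor of mTORC1 that many stresses induce, read 8.60 and 8.41 against 6.17 and 5.92 in wild type, a difference of 2.46 ± 0.12 (limma adjusted p = 1.71e-07). Gars, the glycyl-tRNA synthetase, was higher by 0.98 ± 0.10. Other known targets of the branch differed in direction and were not called. Slc3a2, an amino acid transporter subunit, stood at 0.51 ± 0.10 and Eif4ebp1, a translation repressor, at 0.34 ± 0.08, with limma adjusted p of 0.00535 and 0.0199. Trib3 stood at 0.07 ± 0.08, Atf3 at -0.04 ± 0.18 and Asns, asparagine synthetase, at -0.27 ± 0.08 (limma adjusted p = 0.0473). Limma called none of the 30 in TgSREBP-2 or in Scap-/-, with 6 and 3 at an unadjusted p under 0.05, where 17.1% and 9.78% of all genes were. Among 15 cytosolic heat shock genes 13.3% were called in TgSREBP-1a, against 7.37% of all genes. Hspa8 was higher by 0.74 ± 0.16 and Hspa1b lower by -0.66 ± 0.12. Hspa8 lost its call without wild type array number 2 (0.62) or TgSREBP-1a array number 1 (0.56), and Hspa1b without TgSREBP-1a array number 2 (-0.52).

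The promoter element can be read across genes. It lay in the windows of 35 genes, of which 12 were measured, 4 of them members. In TgSREBP-1a all 12 lay below 0, from -0.97 to -0.05 with a median of -0.27, where 55.9% of all genes lay below 0. Called lower were 4, against 2.59% of all genes: Creld2 and Ero1b, of the 8 that are not members, and the members Hspa5 and Pdia6. Without wild type array number 1 the count was 2. The smallest differences were those of Canx at -0.08 ± 0.11, Pan2 at -0.06 ± 0.08 and Zfp57 at -0.05 ± 0.08. Creld2, Ero1b, Hspa5, Pdia6, Hsp90b1, Dnajc3, Calr and Canx are also on the folding list above, so these counts are not independent of that list. The genes outside it were Pan2, Zfp57, Ptgdr2 at -0.24 ± 0.10 and Adcy3 at -0.17 ± 0.09. None of them passed (limma adjusted p of 0.128 or more). In TgSREBP-2, 8 of the 12 lay below 0, against 55.8% of all genes, and in Scap-/- 3 did, against 48.3%. Nupr1 is 1 of 29 measured genes with TGATGNAAT, and in TgSREBP-1a 2 of these were called higher, and Nupr1 itself lower. That is 10.3% called, against 7.37% of all genes.

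Bulk liver RNA holds other cells, and fewer cells of a type and less RNA per cell cannot be told apart in it. Exocrine pancreas, which is rich in the ER machinery and in Xbp1, gave the largest differences among the marker lists. Of 18 listed markers 11 were measured. In TgSREBP-1a 10 of these were called lower, against 2.59% of all genes, with a median of -2.84. The trypsinogen gene Prss2 read 5.64 and 5.66 there, against 11.22 and 11.19 in wild type. The log2 of the summed signal of the 11 markers was 10.88 on both TgSREBP-1a arrays, 14.16 and 14.19 in diet-matched wild type and 14.64 and 14.61 in TgSREBP-2. On chow it was 13.14 and 13.17 in wild type and 11.26 and 11.16 in Scap-/-. None of the 11 is at 0, since log2 array values have no zero. Their part in the lower Xbp1, Hspa5 and folding genes of TgSREBP-1a was not tested. In Scap-/- 10 of the 11 were called lower, with a median of -1.84, where 1.66% of all genes were called in either direction. Xbp1 stood at 0.08 and Hspa5 at 0.41 there against wild type on chow. The chow pools differ from the transgenic set in diet, age and injections. In TgSREBP-2 4 of the 11 markers were called higher, where 2.57% of all genes were called in either direction, and Xbp1 and Hspa5 stood at -0.34 and -0.33.

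**Figure D4:**
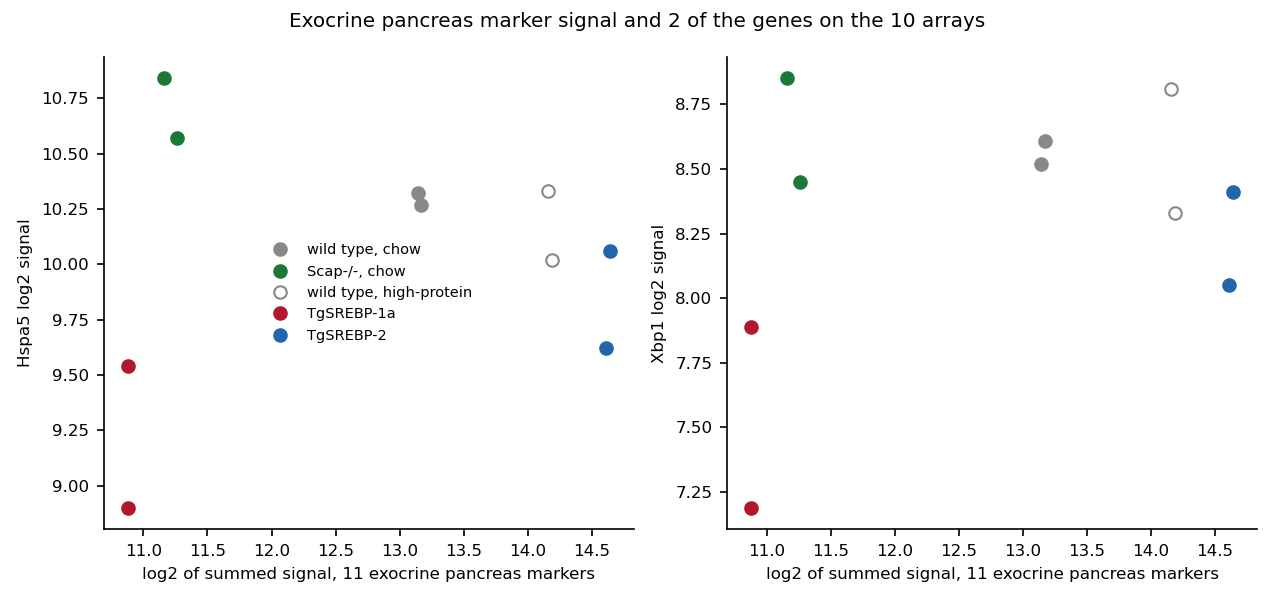
Log2 signal of Hspa5 (left) and Xbp1 (right) against the log2 of the summed signal of 11 exocrine pancreas markers, 1 point per array and 2 per pool. TgSREBP-1a and Scap-/- arrays have the low marker signals, between 10.88 and 11.26. Hspa5 reads 8.90 to 9.54 in TgSREBP-1a and 10.57 to 10.84 in Scap-/-, pools that also differ in diet, age and injections.

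Other cell markers moved too. Of 11 macrophage markers 6 were called higher in TgSREBP-1a, against 4.78% of all genes, with a median of 0.68. In TgSREBP-2 4 were called higher, where 2.57% of all genes were called in either direction. Limma called none of them in Scap-/-, with 3 at an unadjusted p under 0.05, against 9.78% of all genes. Of the 4 in TgSREBP-2, Mpeg1, C1qb and Lyz2 lost their call without TgSREBP-2 array number 1 or with the mean of all probe sets, which left Cd5l. Their log2 summed signal was 11.65 and 11.63 in diet-matched wild type, 12.41 and 12.30 in TgSREBP-1a, and 12.16 and 12.05 in TgSREBP-2. On chow it was 12.20 and 12.28 in wild type and 12.11 and 12.14 in Scap-/-, so the lowest pair was that of wild type fed the high-protein diet. The plasma and B cell list had 9 measured markers, and of these cells the plasma cells have a large ER. In TgSREBP-1a 1 of the 9 was called higher, Ighm, and none lower. Read from plain probe sets alone, Ighm stood at -0.14. The log2 summed signal of this list was 10.73 and 10.75 against 10.12 and 10.30. That sum includes Ighm, at 9.56 and 9.53 against 8.07 and 8.18, and is not separate from it. The median difference of the list was 0.13. Of 8 neutrophil markers 1 was called higher, Lcn2, which hepatocytes also make. Among 9 hepatocyte markers 1 was called higher, Tat at 0.77 ± 0.11, and 2 lower, Ttr at -1.37 ± 0.10 and Serpina1b at -0.83 ± 0.07. These are 33.3% of the 9, against 7.37% of all genes. Ttr and Serpina1b encode secreted proteins, as do Alb, Apoa1, Apoa2 and Fgb. Of these only Alb was higher, at 13.85 and 13.84 in TgSREBP-1a against 13.55 and 13.60 in wild type on the diet. For Apoa1, Apoa2 and Fgb both TgSREBP-1a arrays lay below both of those wild type arrays. Apoa1 read 13.43 and 13.39 against 13.69 on both. The part of these shifts in the members' differences was not tested.

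The genes most like a member were found by the root mean square difference of mean-centred log2 values over the 10 arrays, with the pools' duplicates among the points. It is a description with no test. Nearest to Xbp1 were Rida at 0.15, Tnfaip8l1 at 0.16, C1ra at 0.16 and Ero1b at 0.17, against a median of 0.49 over all genes, and Hspa5 stood at place 6 (0.18). Nearest to Hspa5 were Manf at 0.16, Xbp1 at 0.18, and Ero1b and Emg1, each at 0.19, against a median of 0.55. Hsp90b1 followed at place 13 (0.21) and Pdia6 at place 126 (0.32). Nearest to Ddit3 were Bcl7c, Mgp and Copb2, each at 0.07, and Surf4 at 0.09, against a median of 0.24, and the nearest member, Calr, came at place 491 (0.16). Nupr1 and Pdia4 lay farther from Hspa5 than the median gene, at 0.90 and 0.59.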

How the data were processed

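Liver RNA pools were measured on 10 MG_U74Av2 arrays. The deposited table holds log2 values of 12488 probe sets. RMA made them, per the submitters' processing notes (its version is not given in the sources used here). The design text instead names Microarray Suite 5.0, software whose signals are linear. The values, from 2.68 to 14.03 with near-equal medians, were taken as log2 signals already normalized between arrays. Of the probe sets, 10833 carried 1 gene symbol in the platform annotation, 10817 of them matched to RefSeq by gene ID. The 66 controls, 396 with several symbols and 1193 with none were left out.

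A limma 3.58.1 fit in R 4.3.3 (lmFit, eBayes) had 1 coefficient for each group and no block, which left 5 residual degrees of freedom. It gave 5 contrasts over 8251 genes. The procedure was tested on simulated data with noise drawn independently for each array, so that test does not cover deviations shared between arrays. The number of arrays limits the precision. Array values have no counts. Same-numbered arrays deviated together in the transgenic set (r of 0.46, 0.61 and 0.60 between pools), so there the number pairs arrays. Unless the replicate block is named, errors and p-values in the text come from the fit without it. In the Scap set r was 0.30 for its 1 pair of pools.

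The members, gene lists and tests were chosen with earlier results of these data known. Named are all members, up to 4 called genes with the largest differences per list and comparison with wild type, and the 4 genes most like Xbp1, Hspa5 and Ddit3. Other genes were named after their values were seen. Alternatives tried were a mean over probe sets, plain probe sets only, median centring, quantile normalization, a filter on dim genes, a trended robust prior, each set alone, the replicate block, call rules of 2-fold or no fold, and each array left out. Within-number differences were added after seeing the data.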

Additional observations from a re-analysis of the deposited data

Results flagged for a closer look

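Pdia6 differed between the 2 transgenic pools on the same diet, by -0.67 on the log2 scale for TgSREBP-1a minus TgSREBP-2 (limma adjusted p = 0.00309, n = 2 arrays each). Both TgSREBP-1a arrays, at 7.68 and 7.43, lay below both TgSREBP-2 arrays, at 8.32 and 8.12. The other 2 Pdia6 probe sets gave -0.78 and -0.61.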

How the results depend on the processing

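The count of members called moved with the call rule and with single arrays. In TgSREBP-1a against wild type it was 4, with 1 at the 2-fold rule and 0 to 5 when 1 array was left out. In Scap-/- it was 0, and 1 with no fold minimum. Between the transgenic pools it was 1, with 3 under the replicate block, 2 with no fold minimum, 0 at the 2-fold rule and 0 to 3 when 1 array was left out. The block changed no call of a member in the other comparisons, although in TgSREBP-2 against wild type 3 members then passed the adjusted p, and in Scap-/- against wild type 2, all below 1.5-fold. Between the wild type pools it was 2, with 4 with no fold minimum and 1 at the 2-fold rule. The 8 folding genes called in TgSREBP-1a, all lower, became 15 with no fold minimum and 0 at the 2-fold rule. Among the 15, Ero1a and Ppic were higher and the rest lower. Over all genes 6.74% were lower at that adjusted p. Quantile normalization added Hsp90b1 at -0.59 in TgSREBP-1a. The marker Ighm turned direction with plain probe sets, to -0.14 in TgSREBP-1a and 0.08 in Scap-/-. The cause was not tested.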
